A study of Homo sapiens with 4 samples.

Results

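Nuclear intronic sites are the RNA stretches outside the mitochondrial chromosome that fPAR-CLIP placed within introns of annotated genes. They were taken from the deposited lists of crosslinked sites by annotation alone: every site whose annotation held an intron term and no 3'UTR term, other than those in NEDD4 and CPNE4. This gave 405 of the 2184 nuclear sites in the series, and of 2341 sites in all. GTPBP8::FLAG replicates 1, 2 and 3 contributed 49, 112 and 61 of them, and the single AUH::V5 library contributed 183.

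GTPBP8 is the human counterpart of the bacterial GTPase EngB, and AUH is an enoyl-CoA hydratase that binds AU-rich RNA. Both proteins reside in mitochondria, and the AUH library served as the comparison for the specificity of GTPBP8 binding. Both were expressed, each with its tag, from a doxycycline-inducible cassette in HEK293 T-REx cells, a human embryonic kidney line, of wild-type genotype. Doxycycline was given to all cultures at 50 ng/ml over 48 h, with 4-thiouridine (4SU) at 100 µM during the last 16 h. Crosslinking took 5 min of UV at 312 nm. Lysates were of whole cells, so nuclear RNA was present in the material, and no library of cells without a tagged protein was analysed here.

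In fPAR-CLIP, 4SU that has been crosslinked to a protein is read as C in place of T, and a site is called where such T-to-C changes pile up. Introns are removed from pre-mRNA by the spliceosome and are normally degraded within the nucleus, but many carry shorter stable RNAs. Small nucleolar RNAs (snoRNAs) and small Cajal body RNAs (scaRNAs), which guide RNA modification, are mostly trimmed out of the introns of host genes. tRNA genes also lie within introns of larger genes, from which RNA polymerase III transcribes them separately. Their primary transcripts end in a run of U just past the mature 3' end, and this trailer is cut away during maturation.

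Many of the AUH intronic sites with the most reads lay over such tRNA genes. Of these, 9 with the most reads are printed 5' to 3' on the strand of the site, each with the gene named in the list followed by the RefSeq tRNA gene. Capitals mark the bases past the 3' end of the tRNA gene, and a final sequence, which starts at the first base after a tRNA gene, is in capitals throughout.
SNORD74, TRD-GTC1-1, chr12:98503537-98503581: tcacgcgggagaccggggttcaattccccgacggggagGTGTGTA
C7orf55, TRR-CCT4-1, chr7:139340741-139340775: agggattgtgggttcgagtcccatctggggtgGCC
XXbac-BPG308K3.6, TRA-AGC2-2, chr6:28863680-28863716: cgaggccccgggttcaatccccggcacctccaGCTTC
XXbac-BPG308K3.5, TRA-AGC2-1, chr6:28838436-28838461: caatccccggcacctccaTTCCTTTT
AGBL5, TRY-GTA2-1, chr2:27050848-27050885: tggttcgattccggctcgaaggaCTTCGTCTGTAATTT
MORF4L1, TRK-CTT1-2, chr15:78860617-78860643: cgagccccacgttgggcgGGTTTGTTT
ERCC1, TRU-TCA1-1, chr19:45478599-45478631: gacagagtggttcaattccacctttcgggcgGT
U3, TRQ-CTG1-4, chr15:65869057-65869082: gttcaaatctcggtggaacctGCATT
LINC00324, TRD-GTC2-11, chr17:8222234-8222265: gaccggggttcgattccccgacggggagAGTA
U1, next to TRH-GTG1-1, chr1:146038116-146038150: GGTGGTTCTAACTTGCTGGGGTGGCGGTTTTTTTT

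In the GTPBP8 libraries, the intronic sites with the most reads were DPP6 in replicate 1 (111), DMXL1 in replicate 2 (383) and PPP1R8 in replicate 3 (189). The 6 short sites printed next were picked for length and for the same start and end in every GTPBP8 replicate, not for reads. Capitals mark each T, the letter at which a 4SU change can be read.
DPP6, chr7:154733823-154733843, plus strand: cccaTaaacTcTcTaaaTccc
PCCA, chr13:100408419-100408439, plus strand: TTTgTTTcTcaaTgaTTaaag
ATRX, chrX:77529119-77529139, minus strand: TcagaggTTcaTTccTTTTca
SMAD2, chr18:47857230-47857250, minus strand: cTTaaTcTcTTaTTTcTacca
KCNH5, chr14:62871629-62871650, minus strand: TTTcTaTTcaTTTcaaTTccTc
ZCCHC4, chr4:25342507-25342527, plus strand: caaacTaTTaTccaaaTaaag

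The GTPBP8 sites that covered an intronic scaRNA or snoRNA are shown by 4 examples, with capitals for the bases shared by every GTPBP8 library that listed the site. They were chosen because they held the most reads of this kind or recurred.
PPP1R8, SCARNA1, chr1:27834401-27834438, plus strand: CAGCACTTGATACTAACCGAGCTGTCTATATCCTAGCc
SEC14L1, SCARNA16, chr17:77089307-77089347, plus strand: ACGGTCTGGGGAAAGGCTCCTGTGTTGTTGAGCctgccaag
KIAA0907, SCARNA4, chr1:155925958-155926008, minus strand: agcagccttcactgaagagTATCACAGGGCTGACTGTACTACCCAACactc
WDR43, SNORD53B, chr2:28927983-28928010, plus strand: TTGCTGTGATGACTATCATTGGGTTTCG

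A pair of intronic sites shared a run of 26 nt, in capitals, with a site over RNY3P2, a pseudogene of the small cytoplasmic RNA Y3. All 3 are given as listed in replicate 3.
UHRF1BP1, intron, chr6:34821506-34821538, plus strand: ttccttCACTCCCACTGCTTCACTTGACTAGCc
CYTH3, intron, chr7:6175216-6175246, minus strand: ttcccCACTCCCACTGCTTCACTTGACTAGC
RNY3P2, chr13:49095454-49095490, plus strand: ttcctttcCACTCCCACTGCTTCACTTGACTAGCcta

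How large a part of the nuclear signal was intronic was compared first. In GTPBP8 replicates 1, 2 and 3, intronic sites made up 11.8%, 16.1% and 15.3% of nuclear sites, a mean of 14.4% ± 2.33 (SD, n = 3). In AUH they made up 27.2% (95% Wilson interval 23.9 to 30.6%). Of the reads at nuclear sites, they held 2.74%, 6.91% and 4.52% in the GTPBP8 replicates, a mean of 4.72% ± 2.09 (SD, n = 3), against 20.3% in AUH (interval 19.4 to 21.2%). AUH was above all GTPBP8 replicates by both measures, with p = 0.25 for each by exact permutation of libraries (two-sided), which is the smallest p that 3 libraries against 1 allow. Protein, tag and the layout of the deposited list changed together here, so their parts cannot be told apart. The list for GTPBP8 has an annotation class of its own for snoRNAs and the list for AUH has none. The lists also differed in depth, with 26677, 32665 and 31107 nuclear site reads in the GTPBP8 replicates and 7795 in AUH. Intervals cover counting error only.

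**Figure D1:**
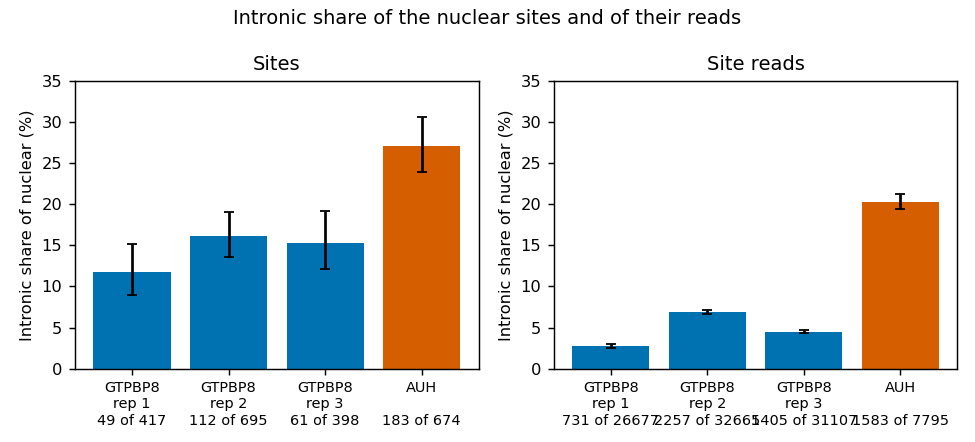
Intronic share (%) of nuclear sites, left, and of the reads at nuclear sites, right, in the 3 GTPBP8 replicates and the AUH library. Bars are the shares, error bars the 95% Wilson intervals, and the counts stand under the bars. AUH lies above every GTPBP8 replicate in both panels.

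Most intronic sites were shallow. The lowest read number of an intronic site was 5 in every list, and 19 of 49, 45 of 112 and 20 of 61 intronic sites in the GTPBP8 replicates stood at 5 reads, as did 94 of 183 in AUH. The median intronic site had 6, 6 and 7 reads in GTPBP8 replicates 1 to 3, and the median other nuclear site had 9, 8 and 9. The ratio of these medians had a mean of 0.731 ± 0.0578 (SD, n = 3), or −0.45 ± 0.12 on the log2 scale (exact two-sided sign-flip p = 0.25, the smallest possible with 3 libraries). In AUH the medians were 5 and 6 reads. Few sites went far above this level: 1, 5 and 3 intronic sites in the GTPBP8 replicates and 1 in AUH had more than 100 reads.

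Intronic sites held more U than the other nuclear sites of the same library. The mean U content was 31.6%, 32.8% and 32.3% in the GTPBP8 replicates against 30.3%, 29.5% and 29.98% at other nuclear sites. The difference was 2.32 ± 0.951 percentage points (SD, n = 3, exact sign-flip p = 0.25), and it had the same sign in all 3. In AUH the difference was 5.92 points, 33.2% against 27.2%. A run UUUUU stood in 7.85% ± 4.49 (SD, n = 3) of intronic GTPBP8 sites and in 16.4% of intronic AUH sites, against 7.01% ± 0.452 and 12.2% of all nuclear sites. AUUUA, the core of AU-rich elements, stood in 6.22% ± 2.00 (SD, n = 3) and 6.56%, against 6.75% ± 0.929 and 4.01% of all nuclear sites. GGGG was found in 5.93% ± 1.63 (SD, n = 3) and 11.5% of them, against 7.86% ± 0.800 and 10.1% of all nuclear sites. RNase T1 cuts after G, and the last base was G in 50.2% ± 8.04 (SD, n = 3) of intronic GTPBP8 sites and 57.9% of those of AUH, against 55.7% ± 0.680 and 50.3% of all nuclear sites.

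The median intronic GTPBP8 site also carried T-to-C changes in more of its reads. It had a change in 100%, 100% and 94.4% of its reads in replicates 1 to 3, against 85.7%, 88.9% and 85.7% at other nuclear sites. The difference was 11.4 ± 2.79 percentage points (SD, n = 3, exact sign-flip p = 0.25). As a mean over sites the difference was 5.91 points. Among sites with at least 10 reads it was 9.55 points (exact sign-flip p = 0.5), and not every replicate then showed the excess. Intronic sites were also the shallower ones, and the part of depth in the difference was not tested. Over all reads together the order was not the same in every replicate, with 83.0%, 60.9% and 67.8% of intronic reads changed against 65.4%, 65.9% and 63.2% of other nuclear reads. Both medians were 100% in AUH. Sites in which every read was changed made up 67.3%, 63.4% and 49.2% of intronic sites in the GTPBP8 replicates, against 35.3%, 43.1% and 37.1% of other nuclear sites. Site length did not separate the groups: medians were 26, 28 and 27 nt against 27, 28 and 27 nt, and 29 nt for both in AUH. Reads per distinct read sequence were 1.63 ± 0.109 at intronic and 1.65 ± 0.0784 at other nuclear sites (SD, n = 3, exact sign-flip p = 0.75).

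The label was checked against RefSeq. For genes with a strand in the RefSeq promoter table, all 38, 82 and 43 intronic sites in the GTPBP8 replicates and all 86 in AUH lay on the strand of the named gene. Of the sites whose gene was found in RefSeq, 47 of 48, 103 of 106 and 55 of 56 in the GTPBP8 replicates fell within the bounds of that gene, and 146 of 173 in AUH did. In the AUH list, 21 intronic sites with 393 reads were named for small RNAs only, such as U1, U3, snoU13, SNORA75, SNORD74 and RNA5-8S5, genes that have no introns. For these the name does not identify an intron, and their positions are given instead.

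RefSeq genes for stable RNAs lay under a minority of sites but under many of the reads. In GTPBP8 replicates 1, 2 and 3, 3, 8 and 6 intronic sites overlapped a snoRNA or scaRNA gene, and these held 13.3%, 27.2% and 32.2% of intronic reads, a mean of 24.2% ± 9.82 (SD, n = 3). Among all nuclear GTPBP8 sites, 5.995%, 5.18% and 9.55% lay over such genes, near the 6.12%, 7.14% and 9.84% of intronic sites, and these held 2.47%, 4.10% and 4.21% of nuclear reads. No AUH intronic site was listed over such a gene, near the 5 of 674 among all nuclear AUH sites (0.742%), which held 0.346% of nuclear reads. tRNA genes lay under 0, 1 and 1 sites in GTPBP8, holding 1.28% ± 1.10 (SD, n = 3) of intronic reads. The CPNE4 site, left out by the rule, also lay over a tRNA gene in every GTPBP8 replicate. With every intron annotation counted, the GTPBP8 minus AUH difference in the share of intronic reads at tRNA genes moved from −29.7 to −8.53 points. In AUH, tRNA genes lay under 21 sites, or 11.5% of intronic sites, holding 31.0% of intronic reads (interval 28.7 to 33.3%). Among all nuclear AUH sites these shares were 16.6% and 34.0%, so the intronic sites were not richer in tRNA genes than nuclear sites in all. For both classes the exact permutation p was 0.25, the smallest possible. Sites over neither a small RNA gene nor a copy of mtDNA made up 86.8% ± 5.58 (SD, n = 3) of intronic sites in GTPBP8 and 87.4% in AUH. These held 69.8% ± 13.1 (SD, n = 3) and 65.9% of the reads.

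**Figure D2:**
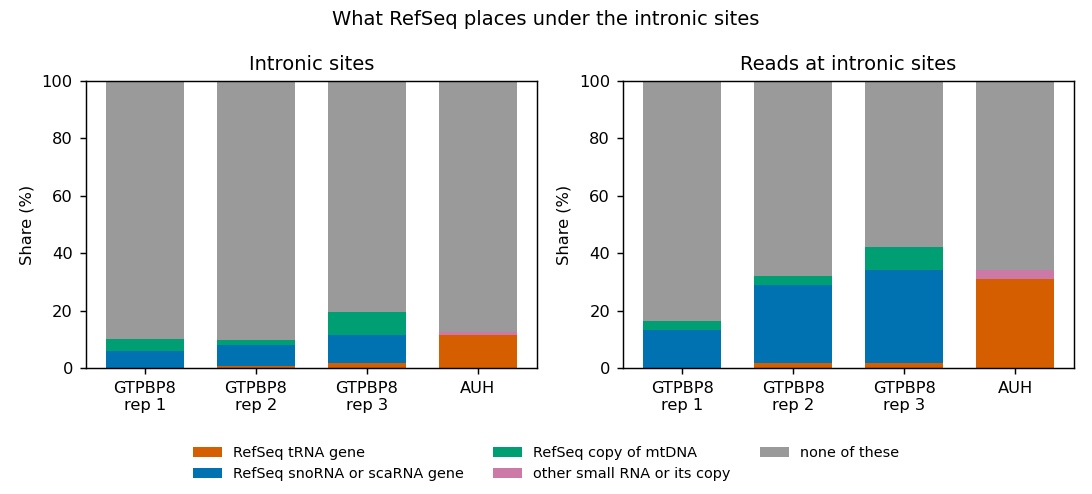
Share (%) of intronic sites, left, and of their reads, right, by the kind of RefSeq gene they overlap, in each library. snoRNA and scaRNA genes hold 13.3 to 32.2% of the reads in GTPBP8 and none in AUH, where they hold 0.346% of all nuclear reads. tRNA genes hold 31.0% in AUH. The CPNE4 site, over a tRNA gene in GTPBP8, is left out.

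The leading AUH site, named for SNORD74 in the list, covered the 3' part of the aspartate tRNA gene TRD-GTC1-1 with 147 reads, 9.29% of all intronic AUH reads. The site in C7orf55 covered the arginine tRNA gene TRR-CCT4-1 with 51 reads. Those in XXbac-BPG308K3.6 and XXbac-BPG308K3.5, over the alanine tRNA genes TRA-AGC2-2 and TRA-AGC2-1, had 30 and 28 reads. AGBL5 and MORF4L1 had 27 reads each, over a tyrosine and a lysine tRNA gene. ERCC1, a DNA repair gene, had 26 reads over the selenocysteine tRNA gene TRU-TCA1-1. Reads at the 21 sites ranged from 6 to 147 with a median of 16, against a median of 5 for the 160 AUH intronic sites over none of the RefSeq classes. The tRNA genes were 21 different ones, so this signal was spread over many loci.

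Most of these sites ran past the 3' end of the tRNA gene. The RefSeq gene table used for tRNA genes gives no strand, so position was read in the direction of the site. In that direction, 17 of the 21 ended 2 to 15 nt beyond the last base of the gene, by a median of 7 nt, and these held 94.3% of the reads at intronic tRNA genes. The remaining 4 began ahead of the gene, in the direction of the site, and ended within it. The AGBL5 sequence printed above carried 15 bases of trailer, and the XXbac-BPG308K3.5 sequence ended in TTTT. The site named U1 at chr1:146038116-146038150 began at the first base after TRH-GTG1-1 and ended in a run of T, with 22 reads, 95.5% of them changed. GUUCNANNC, the letters of the T loop of most tRNAs, stood in 13 of the 21 sites, in 7.10% of all intronic AUH sites and 6.68% of all nuclear AUH sites, and in none of the intronic GTPBP8 sites. Among the AUH sites over tRNA genes that were not annotated as intronic, 57 of 91 ran past the 3' end, with 36.2% of their reads. Counting sites within 30 nt of a tRNA gene gave 23 sites and 33.3% of intronic AUH reads.

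**Figure D3:**
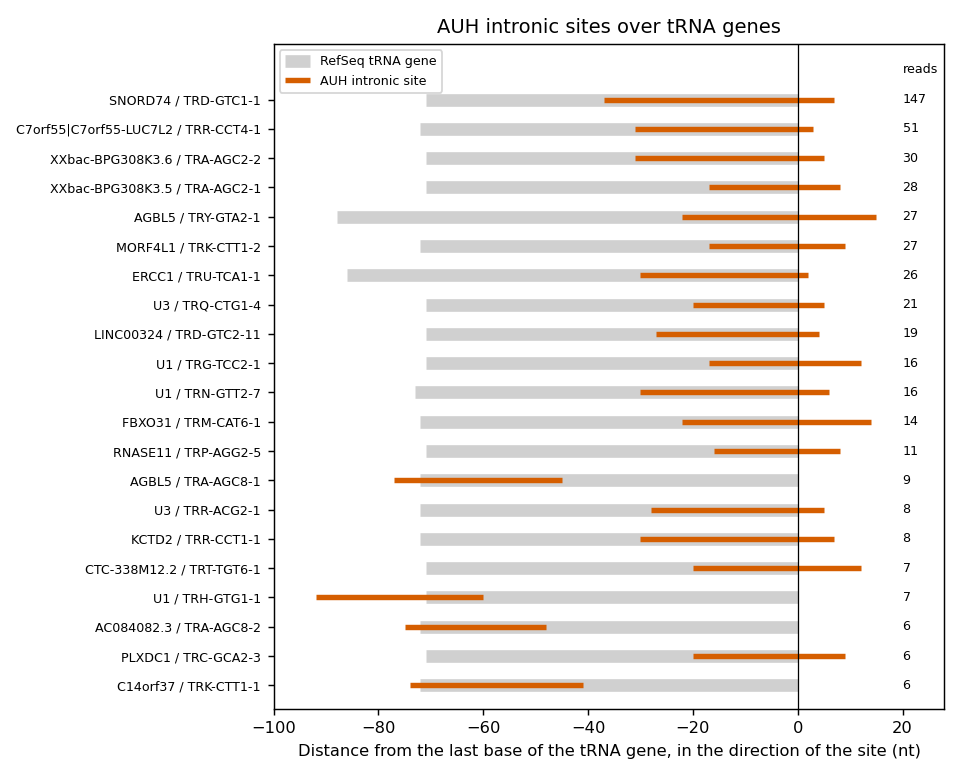
The 21 AUH intronic sites over tRNA genes, placed by distance (nt) from the last base of the gene in the direction of the site, which is taken as the gene's own. Grey bars are the RefSeq genes, orange lines the sites, and the numbers their reads. Orange lines cross the 3' end in 17 of 21.

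GTPBP8 sites also lay over tRNA genes, but mostly outside the intronic sites taken here. All tRNA-gene sites held 35.7%, 27.6% and 37.0% of nuclear reads in the GTPBP8 replicates and 34.0% in AUH. In the GTPBP8 lists 0 of 9, 1 of 10 and 1 of 17 such sites were among the intronic sites, against 21 of 112 in AUH. The rule left out by gene name a CPNE4 site over TRC-GCA6-1, with 580, 900 and 592 reads in replicates 1 to 3. The site taken as intronic was in ELF1, which encodes a transcription factor, over the glutamate tRNA gene TRE-TTC1-2. It had 43 reads in replicate 2 and 27 in replicate 3, with 32.6% and 33.3% of them changed. It ran 11 and 10 nt past the 3' end of the tRNA gene, and it was not listed in replicate 1 or in AUH.

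The GTPBP8 sites over snoRNAs and scaRNAs were few but mostly deep. PPP1R8, whose intron holds the H/ACA RNA SCARNA1, was not listed in replicate 1 and had 213 and 189 reads in replicates 2 and 3. SEC14L1, host of SCARNA16, was likewise absent in replicate 1 and had 222 and 122 reads. KIAA0907, host of SCARNA4, was listed in all 3, with 25, 92 and 51 reads. Replicate 1 was the lowest for each of these genes. WDR43, host of SNORD53B, had 16 and 23 reads in replicates 1 and 2. MATR3, over SNORA74D, had 30 reads in replicate 2 only. GAS5, a noncoding gene that hosts many box C/D snoRNAs, had 43 reads over SNORD80 and 26 over SNORD47 in replicate 3 only. CHD3, over SCARNA21, had 22 reads in replicate 3. Shallower ones were SEC31A over SNORD143, EEF1E1 over SCARNA27 and TRRAP over SCARNA28, with 16, 9 and 8 reads in replicate 2 only. None of these loci was listed as intronic in AUH.

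Only part of the reads over these RNAs carried a change. The median share of changed reads over the intronic snoRNA and scaRNA sites was 37.5%, 37.4% and 33.0% in replicates 1 to 3. It was 100% in each for the intronic sites over no RefSeq class. Other nuclear sites over snoRNA or scaRNA genes had medians of 37.1%, 47.5% and 40.1%, so the low share was not particular to introns. At PPP1R8, 45.1% and 64.6% of reads were changed in replicates 2 and 3, at SEC14L1 35.6% and 31.1%, and at KIAA0907 48.0%, 39.1% and 49.02% in replicates 1 to 3. Read number moved with this class, since the median snoRNA or scaRNA site had 25, 26.5 and 47 reads and the median site over no RefSeq class had 6, 6 and 7. Its part in the lower share was not tested. Every listed site had changes at 2 or more positions.

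**Figure D4:**
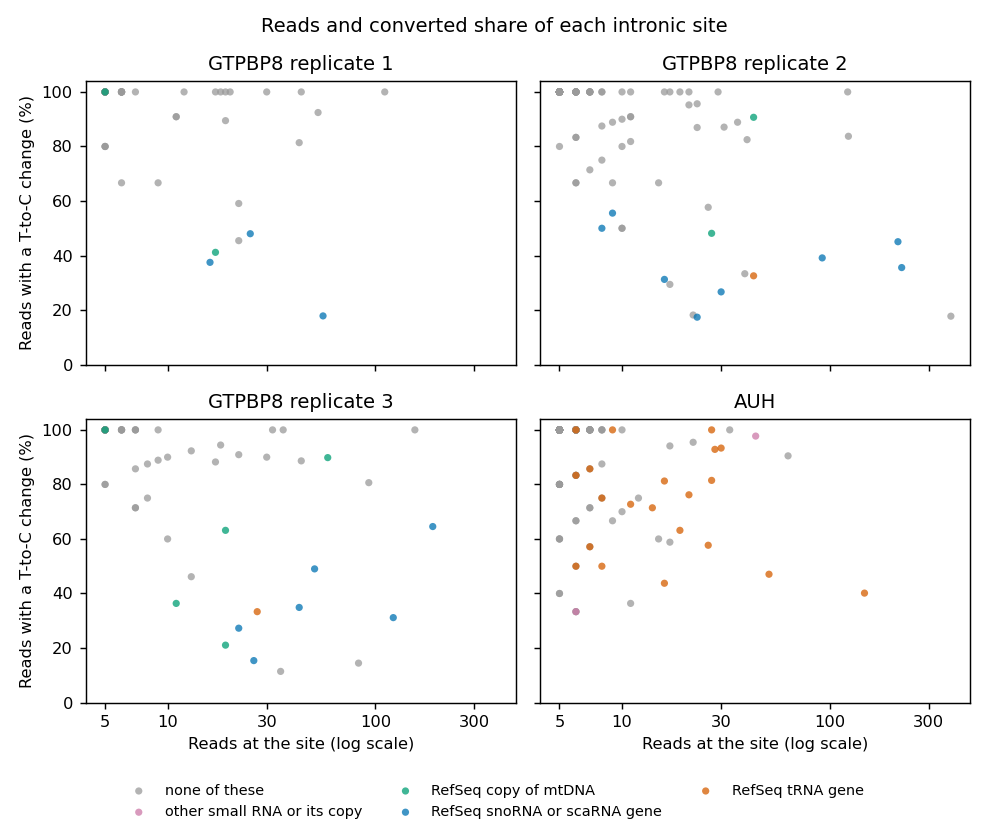
Reads per intronic site (x, log scale) against the share of its reads with a T-to-C change (y, %), in each library. Each point is a site and the colour is the RefSeq class. Most snoRNA and scaRNA sites have many reads and low shares, and most sites at 5 to 10 reads have shares near 100%.

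Host genes of snoRNAs and scaRNAs were counted as a group. Sites in such genes made up 10.2%, 8.93% and 13.1% of intronic sites in GTPBP8, a mean of 10.7% ± 2.15 (SD, n = 3), and 2.73% in AUH (5 of 183, interval 1.17 to 6.24%, exact permutation p = 0.25). They held 25.2% ± 9.55 (SD, n = 3) of intronic reads in GTPBP8 and 2.02% in AUH. Among other nuclear sites with a gene name, the host share was 6.66% ± 0.634 (SD, n = 3) in GTPBP8 and 7.17% in AUH. Most host sites in GTPBP8 lay over the small RNA itself, namely 3 of 5, 8 of 10 and 6 of 8 in replicates 1 to 3, with 97 of 107, 613 of 630 and 453 of 466 reads. With those sites left out, the GTPBP8 mean exceeded AUH by 0.570 percentage points. In AUH, all 5 host sites lay outside the small RNA. Of these, 3 were in EEF2, which encodes a translation elongation factor, with 5 to 11 reads. With a list of hosts written by hand in place of RefSeq positions, the difference was 1.79 points.

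Recurrence between GTPBP8 replicates was limited. Between pairs of replicates, 21.3% ± 6.77 (SD over 6 ordered pairs) of intronic sites overlapped a site of the other replicate, and 22.8% ± 5.11 of other nuclear sites did. Merged by overlap, the GTPBP8 intronic sites formed 188 loci, of which 163 were in 1 replicate, 16 in 2 and 9 in all 3. The 9 recurrent loci held 48.6%, 20.7% and 33.0% of intronic reads in replicates 1 to 3. Among sites with at least 10 reads the shared fraction was 43.5%. None of the 188 intronic GTPBP8 loci overlapped an AUH site, whereas 3.48% ± 0.707 (SD, n = 3) of other nuclear GTPBP8 sites did, a difference of the same sign in all 3 replicates (exact sign-flip p = 0.25).

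**Figure D5:**
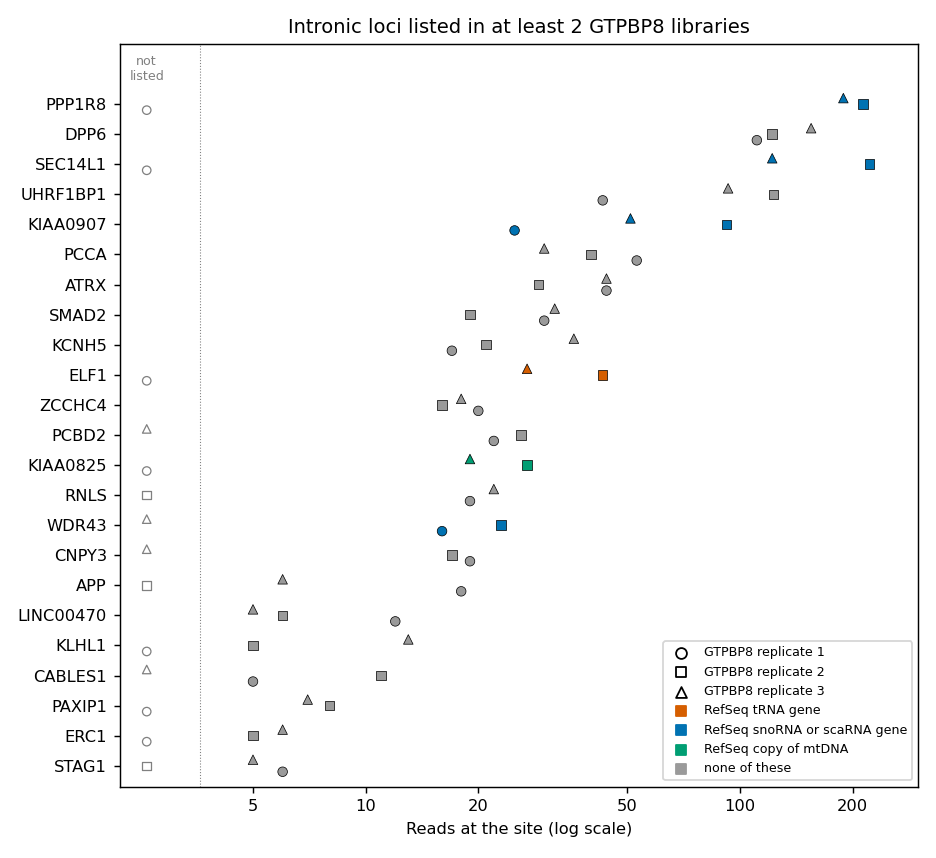
Reads (x, log scale) at 23 of the 25 intronic loci listed in at least 2 GTPBP8 replicates, ordered by mean. Marker shape is the replicate, colour the RefSeq class, and open markers at the left mean not listed. DPP6, UHRF1BP1, KIAA0907, PCCA, ATRX, SMAD2, KCNH5, ZCCHC4 and LINC00470 have a filled marker for all 3 replicates.

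The 6 short recurrent sites printed above were 21 or 22 nt long, and at least 82.5% of their reads were changed in every replicate. DPP6, which encodes an auxiliary subunit of neuronal potassium channels, had 111, 122 and 155 reads in replicates 1 to 3, or 0.429% ± 0.0634 (SD, n = 3) of nuclear site reads. All of its reads were changed in each replicate, with 2.00 changes per read at its 2 changed positions, although the printed sequence holds 5 T. KCNH5, a potassium channel gene, had 17, 21 and 36 reads, also all changed and with 2.00 changes per read. ZCCHC4, an rRNA methyltransferase gene, had 20, 16 and 18 reads and again 2.00 changes per read. The 3 genes thus gave the same number of changes per read in every replicate.

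PCCA, ATRX and SMAD2 were similar in length but not in the number of changes. PCCA, a subunit of the mitochondrial enzyme propionyl-CoA carboxylase, had 53, 40 and 30 reads, of which 92.5%, 82.5% and 90.0% were changed, with 1.92, 1.83 and 1.90 changes per read. ATRX, a chromatin remodeller, had 44, 29 and 44 reads with 1.36, 1.14 and 1.32 changes per read. SMAD2, a mediator of TGF-beta signalling, had 30, 19 and 32 reads, all changed, with 1.03, 1.11 and 1.19 changes per read. Each of the 6 short sites had at least 12 distinct read sequences in each replicate. The median over all intronic sites was 1.33, 1.00 and 1.00 changes per read in replicates 1 to 3, and 0.889, 1.00 and 0.889 over other nuclear sites. Changes per read and the share of changed reads come from separate deposited columns that did not always match. PCCA had 2 changed positions, so its 1.83 changes per read in replicate 2 exceed what 82.5% changed reads allow. The ELF1 site in replicate 2 had 0.233 changes per read with 32.6% of reads changed. Both columns are given as deposited.

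UHRF1BP1, which encodes a lipid transfer protein, was the recurrent locus with the Y3 sequence. It had 43, 123 and 93 reads, with 81.4%, 83.7% and 80.6% of them changed. The RNY3P2 site had 60, 118 and 74 reads, with 96.7%, 89.8% and 91.9% changed. The CYTH3 site, which shares the 26 nt run, was listed in replicate 3 only, with 35 reads of which 11.4% were changed. Reads from near-identical copies can be placed at any of them, so the gene of origin of these reads is uncertain. No intronic site had exactly the sequence of another nuclear site in its library. Runs of at least 19 nt were shared with a site elsewhere by 2, 6 and 4 intronic sites in the GTPBP8 replicates, these included, and by 10 in AUH. Among them was SH3BP5, whose 6 reads in replicate 2 shared 25 nt with the NEDD4 site.

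A further group consisted of copies of mtDNA within introns. These lay under 2, 2 and 5 intronic sites in the GTPBP8 replicates, with 22, 70 and 113 reads, and under none in AUH. In GTPBP8 they made up 4.08%, 1.79% and 8.20% of intronic sites, against 4.56%, 2.30% and 4.52% of all nuclear sites. In AUH such copies were also rare among all nuclear sites, at 1 of 674 (0.148%). Among the intronic GTPBP8 copies was a site in KIAA0825, over the pseudogene MTND6P3, with 27 and 19 reads in replicates 2 and 3. Within 2 mismatches of a mitochondrial site of the lists were 2, 2 and 1 intronic sites, with 27, 33 and 8 reads.

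The deepest intronic site of all was listed once. DMXL1, which encodes a regulator of the vacuolar ATPase, had 383 reads in replicate 2, which were 17.0% of its intronic reads, and was not listed in replicates 1 and 3 or in AUH. Only 17.8% of its reads were changed. PHKB, a phosphorylase kinase subunit gene, had 83 reads in replicate 3 only, with 14.5% changed. The site with the most reads held 15.2%, 17.0% and 13.5% of intronic reads in the GTPBP8 replicates and 9.29% in AUH, a mean of 15.2% ± 1.76 (SD, n = 3) against 1 value (exact permutation p = 0.25).

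Intronic GTPBP8 sites of 43 to 46 nt had more reads per distinct read sequence than intronic sites as a whole. The sites of this length are illustrated by 4 of them, with capitals from the last TGG to the end.
CNPY3, chr6:42936239-42936281, plus strand: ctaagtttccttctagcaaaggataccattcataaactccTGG
LINC00470, chr18:1330625-1330667, minus strand: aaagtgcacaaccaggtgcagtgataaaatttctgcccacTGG
CDC42BPA, chr1:227065575-227065620, minus strand: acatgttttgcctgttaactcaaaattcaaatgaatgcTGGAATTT
COA1, chr7:43642022-43642067, minus strand: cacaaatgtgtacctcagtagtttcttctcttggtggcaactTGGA
There were 5, 12 and 4 intronic sites of this length in replicates 1 to 3, and 4, 9 and 2 of them ended in TGG or TGGA. Their reads per distinct read sequence were 3.13, 7.08 and 4.50, against 1.65, 1.72 and 1.51 over all intronic sites. At other nuclear sites of this length they were 2.16, 2.34 and 1.40, and 4 of 11, 11 of 20 and 3 of 6 of those ended in TGG or TGGA. CNPY3 had 19 and 17 reads in replicates 1 and 2, which came from 2 and 1 distinct read sequences. LINC00470, listed in all 3, had 12, 6 and 5 reads, each time from 1 distinct sequence. APP, the amyloid precursor gene, had 18 and 6 reads in replicates 1 and 3, from 2 distinct sequences each time, at a site of 40 nt. The length range was set after the data had been seen, and the TGG and TGGA ends were looked for after the sequences had been seen. These ends stood in 8.31% ± 2.95 (SD, n = 3) of intronic GTPBP8 sites, 3.50% ± 1.44 of all nuclear GTPBP8 sites, and 2.19% and 2.08% in AUH. Molecular identifiers were not available here, so the number of molecules behind such sites is unknown.

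Outside the tRNA genes, AUH intronic sites were shallow and scattered. The 160 sites over none of the RefSeq classes had 1043 reads with a median of 5, and 10 of them had 10 reads or more. The leading one was annotated to LYVE1 and MRVI1, with 63 reads at a site of 22 nt, 90.5% of them changed. Another of them, named snoU13, had 33 reads. A site that was not among the 160, over the 5S rRNA pseudogene RNA5SP132 and named together with U3, had 44. Lower-case letters, which usually mark repeats in genome files, covered 38 of 183 intronic sites wholly (20.8%) and 49 of 491 other nuclear AUH sites (9.98%). The GTPBP8 lists are in capitals throughout and do not allow this count.

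In the genes read with both proteins, the sites differed. With each symbol of a compound name taken on its own, intronic sites of both were listed for 11 genes, of 172 with a GTPBP8 site and 196 with an AUH site. ERC1, an active-zone scaffold gene, had 4 AUH sites of 5 to 9 reads within 1040 nt, and a GTPBP8 site with 5 and 6 reads in replicates 2 and 3, just upstream of them. XIST, the noncoding RNA of X inactivation, had 6, 16 and 13 reads at 1, 2 and 2 sites in the GTPBP8 replicates and 13 reads at 2 sites in AUH, none at the same position. In the GTPBP8 lists XIST was annotated as an intron of a long noncoding RNA, and in the AUH list as a plain intron. SRRM2, PDE10A, REV3L, ATRX and TBL1XR1 had 5 to 7 AUH reads each, and all but ATRX had 5 reads in 1 GTPBP8 replicate. The remaining 4, named with other genes in the AUH list, were HAT1, PARD3, SPAG9 and EEF1E1, with 5 or 6 AUH reads and 5 to 10 reads in 1 GTPBP8 replicate.

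Gene families were counted among the gene names with an intronic site, 48, 108 and 56 in the GTPBP8 replicates and 163 in AUH, beside all names with a nuclear site, 271, 505, 269 and 444. Cytosolic ribosomal protein genes numbered 1, 0, 0 and 1 with an intronic site, namely RPL5 and RPL37A, and 9, 7, 6 and 13 with any nuclear site. Mitochondrial ribosomal protein genes numbered 0, 0, 0 and 1, against 2, 3, 1 and 4. Genes of oxidative phosphorylation numbered 1, 0, 0 and 1, against 4, 7, 2 and 3. Spliceosome and hnRNP genes numbered 1, 3, 0 and 1, against 8, 13, 3 and 8, with HNRNPF, HNRNPH1 and HNRNPU in replicate 2. SNHG and other noncoding genes, chosen by name (SNHG, LINC, -AS, -IT, -DT), numbered 2, 3, 1 and 1, against 6, 7, 7 and 1. Of a list of 20 abundant mRNAs carried over from an earlier account, none had an intronic GTPBP8 site. Only EEF2 had intronic AUH sites, 3 in number. With any nuclear site there were 8, 9, 7 and 5 of them. With so few intronic members, shares within a list were not compared.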

How the data were processed

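Crosslinked sites came from 3 biological replicates of GTPBP8::FLAG and 1 library of AUH::V5, in HEK293 T-REx cells. The authors deposited the GTPBP8 sites as called per library on hg38 with PARpipe and PARalyzer after Cutadapt. The submitters' processing notes name bcl2fastq 2.17.1. Their columns of reads, distinct reads and conversion events are deposited as unnormalized counts, and the share of changed reads is a deposited fraction. Changes per read are the conversion events over the reads, and did not always match that fraction. For AUH the authors deposited another layout, in which reads with a conversion are expected counts and their share is a fraction. AUH reads were taken as the former divided by the latter and rounded, since the deposited total was a multiple of this at many annotated sites. Site reads totalled 402701, 627603 and 403172 in GTPBP8 replicates 1 to 3 and 9684 in AUH, which gives the depth. Intervals are 95% Wilson intervals for counting error.

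Starts were set to 1-based GRCh38 positions, and bases were counted on upper-cased sequences. Sites were overlapped (1 nt or more) with genes of the RefSeq GRCh38.p14 gene table, which has no strand. Gene strands came from the RefSeq promoter table. A snoRNA host is a gene whose bounds contain a SNORD, SNORA or SCARNA gene. Sites were shared when they overlapped by 1 nt on the same strand. Shares were compared by exact permutation of libraries and within-library differences by exact sign flips, both two-sided. The smallest p of either is 0.25, so no comparison could reach the 0.05 threshold. No test across genes was run. The overlap and test functions were tested on simulated data.

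Genes were named by rule: up to 10 with a site in every GTPBP8 library, the 5 with the most reads per library, those with sites for both proteins, and up to 10 hosts. The members, lists and rules were chosen with earlier results of these data known. Alternatives were a minimum of 10 reads, each sequence once, every annotation with an intron, the deposited AUH totals, sites matching mitochondrial ones left out, NEDD4 and CPNE4 left out, other summaries, distinct reads, 50% overlap, a written host list, shared runs of 19 nt, and each GTPBP8 replicate left out. The RefSeq classes, the 30 nt window, GUUCNANNC, the TGG ends and the host share outside the small RNA were chosen after seeing the data. Computation used scipy 1.17.1, pandas 2.3.3 and numpy 2.4.6 under Python 3.11.15, and figures matplotlib 3.10.9. Some genes are not reported here.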

Additional observations from a re-analysis of the deposited data

Results flagged for a closer look

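Intronic minus other nuclear sites went one way in all 3 GTPBP8 replicates and the other way in AUH for 3 measures, and these differences between the proteins were not tested. The share of sites in snoRNA host genes was higher at intronic sites by 4.09 ± 2.77 percentage points (SD, n = 3; 1.85 to 7.19) in GTPBP8 and was −4.43 points in AUH. The share of reads over snoRNA or scaRNA genes was higher by 21.7 ± 9.50 points (11.1 to 29.4) in GTPBP8 and was −0.435 points in AUH. The share of sites with GGGG was −2.23 ± 1.93 points (−4.34 to −0.564) in GTPBP8 and 1.90 points in AUH.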

How the results depend on the processing

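The results were recomputed in 115 ways, and 108 kept direction or stayed within the replicate spread. None could pass the threshold, so this says nothing of significance. The exceptions were as follows. Requiring 10 reads turned the log2 ratio of median reads to 0.14, turned the GTPBP8 excess in the share at the top site to −2.61 points, and raised sharing between GTPBP8 replicates to 43.5%. The difference in reads per distinct read sequence, −0.0258, became 0.0973 with every intron annotation, which adds the NEDD4 and CPNE4 sites. It became 0.907 as a mean over sites, and −0.0517 to 0.00342 with a GTPBP8 replicate left out. The difference in site length, −0.333 nt, became 0.0813 nt as a mean. The cause was not tested, other than for annotations added or sites removed by the alternative itself. Other values kept their sign but moved by over 1.5 times. Requiring 10 reads moved the GTPBP8 minus AUH difference in the intronic share of sites from −12.8 to −6.32 points, that in reads at tRNA genes from −29.7 to −61.5, and that in host genes from 8.02 to 15.1. It moved the within-library differences in length to −1 nt and in reads per distinct sequence to −0.125. With means the log2 ratio of reads moved from −0.45 to −1.85 and the difference in changed share from 11.4 to 5.91 points. With every intron annotation, the difference in the intronic share of reads moved from −15.6 to −9.72 points and that at the top site from 5.92 to 25.8. The GTPBP8 minus AUH difference in reads at tRNA genes then moved to −8.53 points, and that at snoRNA or scaRNA genes from 24.2 to 10.97. Without GTPBP8 replicate 1, 2 or 3 the latter was 20.2 to 29.7 points. No paired analysis was possible because the AUH label gives no replicate number and only 1 AUH library exists here. AUH rests on 1 library of 9684 site reads, and a site at 5 reads fixes neither its share of changed reads nor its ends closely.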
